A study of Mus musculus with 9 samples.

Results

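Transcripts of 10 genes of the Notch pathway were followed in E0771, a tumour line of the mouse mammary gland, after knockdown of pyruvate carboxylase, a mitochondrial enzyme that makes oxaloacetate from pyruvate and is encoded by Pcx. The genes were the receptors Notch1 and Notch2, the ligands Jag1 and Jag2, the Fringe enzymes Lfng, Mfng and Rfng, the DNA-binding factor Rbpj, and the target genes Hes1 and Hey1. They were taken by the gene symbol of their probe sets, and all 10 were found, each with 1 probe set, among 19505 named genes and 22206 probe sets on the array. The set was selected on Lfng, whose signal was strongly lowered by both hairpins against the control, so the values of Lfng are given as a description and carry no test. Messenger RNA was measured on 9 Clariom S arrays, with 3 for cells carrying a scramble hairpin (scram), 3 for cells carrying the hairpin shPC25 and 3 for cells carrying shPC28. Both hairpins target Pcx, and all 3 hairpins were delivered by lentivirus in the pLKO.1 vector, so the control cells also carried a vector and a hairpin. The study selected cells carrying these hairpins with puromycin. Cells of every group were grown in DMEM containing 5.6 mM glucose, 4 mM glutamine and 10% serum, with no other treatment stated. Whether replicate arrays stem from independent cultures is not stated, so the p-values reflect the spread among these samples, possibly only a technical one, and all comparisons are within 1 cell line.

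Notch receptors sit in the plasma membrane and are activated by ligands of the Jagged and Delta-like families on a neighbouring cell. Enzymes of the secretory pathway place sugars on the epidermal growth factor repeats of the receptor, and Fringe proteins extend the O-fucose among these with N-acetylglucosamine, which shifts the response of the receptor between Delta-like and Jagged ligands. After a ligand binds, ADAM proteases and then gamma-secretase cut the receptor, and the freed intracellular domain enters the nucleus, joins RBPJ and a Mastermind protein on DNA, and switches on genes such as those of the Hes and Hey repressors. In the mammary gland the pathway is known for its part in luminal cell fate, and lunatic fringe, the product of Lfng, is known as a tumour suppressor of the mouse mammary gland.

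Signals are on a log2 scale, so a difference of 1 is a doubling, and a level above 4.95 lies over the median of all probe set means. Array medians lay between 4.88 and 5.04, and arrays of 1 group correlated at 0.995 to 0.998 across probe sets. Probe sets are no independent replicates. Pcx, the target, averaged 9.07 (SD 0.20) over the 3 scram arrays, 5.53 (SD 0.11) over those of shPC25 and 6.81 (SD 0.22) over those of shPC28, so its level with shPC28 was higher than with shPC25 by 1.28 (adjusted p = 0.000307, limma). Of 7 epithelial markers, Krt8, Epcam and Cdh1 averaged over that median, while Krt18, Krt19, Krt5 and Krt14 did not. Of 5 mesenchymal markers, Vim, Zeb1 and Twist1 did. None of 4 immune markers (Ptprc, Adgre1, Cd3e, Itgam) or 4 endothelial ones reached it, and the summed immune level was 11.01 to 11.85 in scram, 11.37 to 12.91 with shPC25 and 11.07 to 11.30 with shPC28. The epithelial sum was 39.21 to 40.15, 38.70 to 39.15 and 39.03 to 41.26 in the same order of groups, the mesenchymal sum 45.88 to 46.25, 45.79 to 46.37 and 44.49 to 45.88, the endothelial sum 14.02 to 15.16, 13.32 to 14.00 and 13.20 to 13.91, and the fibroblast sum, with Col1a1 and Pdgfrb of 4 over the median, 22.91 to 23.52, 21.78 to 22.75 and 20.57 to 23.17. Krt14, Zeb1, Cdh5 and Col1a1 fell and Krt8 rose with both hairpins, and the immune markers passed with neither. With shPC28 alone, Pdgfrb fell by 2.12 (adjusted p = 0.000135), Twist1 by 0.67 (adjusted p = 0.00263) and Epcam by 0.74 (adjusted p = 0.0463). With the same hairpin Cdh1 rose by 0.61 (adjusted p = 0.041) and Fn1, which lay under that median, by 0.37 (adjusted p = 0.0165). Epithelial markers thus moved in both directions, while Zeb1 and Twist1, the mesenchymal markers over that median that passed, fell. Fn1, the mesenchymal marker that rose, lay under 3.01, the 25th percentile of all probe set means. The part of such marker changes in the Notch values was not tested.

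Promoter sequence is shown for the genes on which the results turn in opposite directions, Lfng, which was lower with both hairpins, and Rfng and Hes7, which were higher. Each line gives the 250 bases before the gene's start from RefSeq (GRCm38.p6), 5′ to 3′ on the gene's strand, and capitals mark the core of the RBPJ motif, TGGGAA on either strand, and the E-box CACGTG, which Hes and Hey repressors and other helix-loop-helix factors can bind. Of the 10 members, 7 matched the RefSeq promoter table, and Mfng, Hes1 and Hey1 did not.
Lfng, chr5:140607091-140607340, plus strand: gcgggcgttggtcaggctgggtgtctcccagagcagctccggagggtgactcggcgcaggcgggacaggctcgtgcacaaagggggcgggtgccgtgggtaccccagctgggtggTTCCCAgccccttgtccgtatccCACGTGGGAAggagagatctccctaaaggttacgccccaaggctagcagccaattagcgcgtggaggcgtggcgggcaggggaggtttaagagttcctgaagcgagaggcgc
Rfng, chr11:120784205-120784454, minus strand: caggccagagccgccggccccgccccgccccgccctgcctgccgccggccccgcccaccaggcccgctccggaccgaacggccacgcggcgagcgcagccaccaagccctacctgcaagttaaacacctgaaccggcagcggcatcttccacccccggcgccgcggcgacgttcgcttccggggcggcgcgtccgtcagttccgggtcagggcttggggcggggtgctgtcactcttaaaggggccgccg
Hes7, chr11:69120203-69120452, plus strand: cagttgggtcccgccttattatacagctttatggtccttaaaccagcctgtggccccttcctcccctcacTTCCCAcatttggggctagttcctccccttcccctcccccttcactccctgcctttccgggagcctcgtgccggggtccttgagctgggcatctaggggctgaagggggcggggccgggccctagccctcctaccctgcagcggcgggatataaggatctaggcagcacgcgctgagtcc

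Lfng held 2 RBPJ cores, beginning 135 and 108 bases before the start, and the second overlapped the E-box to read CACGTGGGAA. That joined form was defined by this Lfng sequence, so its presence in Lfng was given and its frequency is only a description. It occurred in 24 of 32851 RefSeq mouse promoters of the same length (0.0731%). Among the 62 pathway genes examined it occurred in Lfng alone. Hes7 held 1 core, 180 bases before the start, in the longer form GTGGGAA. The second core of Lfng had this longer form as well. It occurred in 7 of the 62 pathway genes, each counted if any of its promoters held it, and in 5.42% of promoters counted singly. These 2 shares differ in unit, since some genes have several promoters. Rfng held no match to either motif in this window. The core alone occurred in 21.6% and the E-box in 6.02% of promoters. Among the 7 matched members, Rbpj was the other one with a core. These are matches of letters and not measured binding sites.

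Of the 9 members other than Lfng, Notch1 was lower and Rfng higher with both hairpins, and Notch2, Jag1, Mfng, Rbpj and Hes1 were lower with shPC28. Lfng chose the set and is left out of the counts. At an adjusted p under 0.05 against scram, shPC28 thus gave 6 of 9 lower and 1 higher, where 20.5% of all probe sets were lower and 21.2% higher by the same rule. With shPC25, 1 of 9 was lower and 1 higher, where 11.3% of all probe sets were lower and 9.19% higher. The arrays did not overlap between shPC28 and scram for 7 of the 9 (51.1% of all probe sets) and between shPC25 and scram for 2 (38.9% of all probe sets). The median log2 change of the 9 was -0.0033 with shPC25 and -1.07 with shPC28, beside 0.04 and 0.10 over all probe sets. The genes were listed with earlier results of these comparisons known, so counts and medians are a description and nothing further is read from them. Both comparisons used the same scram arrays. In cultures measured in bulk, fewer cells expressing a gene and less of its RNA per cell cannot be told apart.

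**Figure D1:**
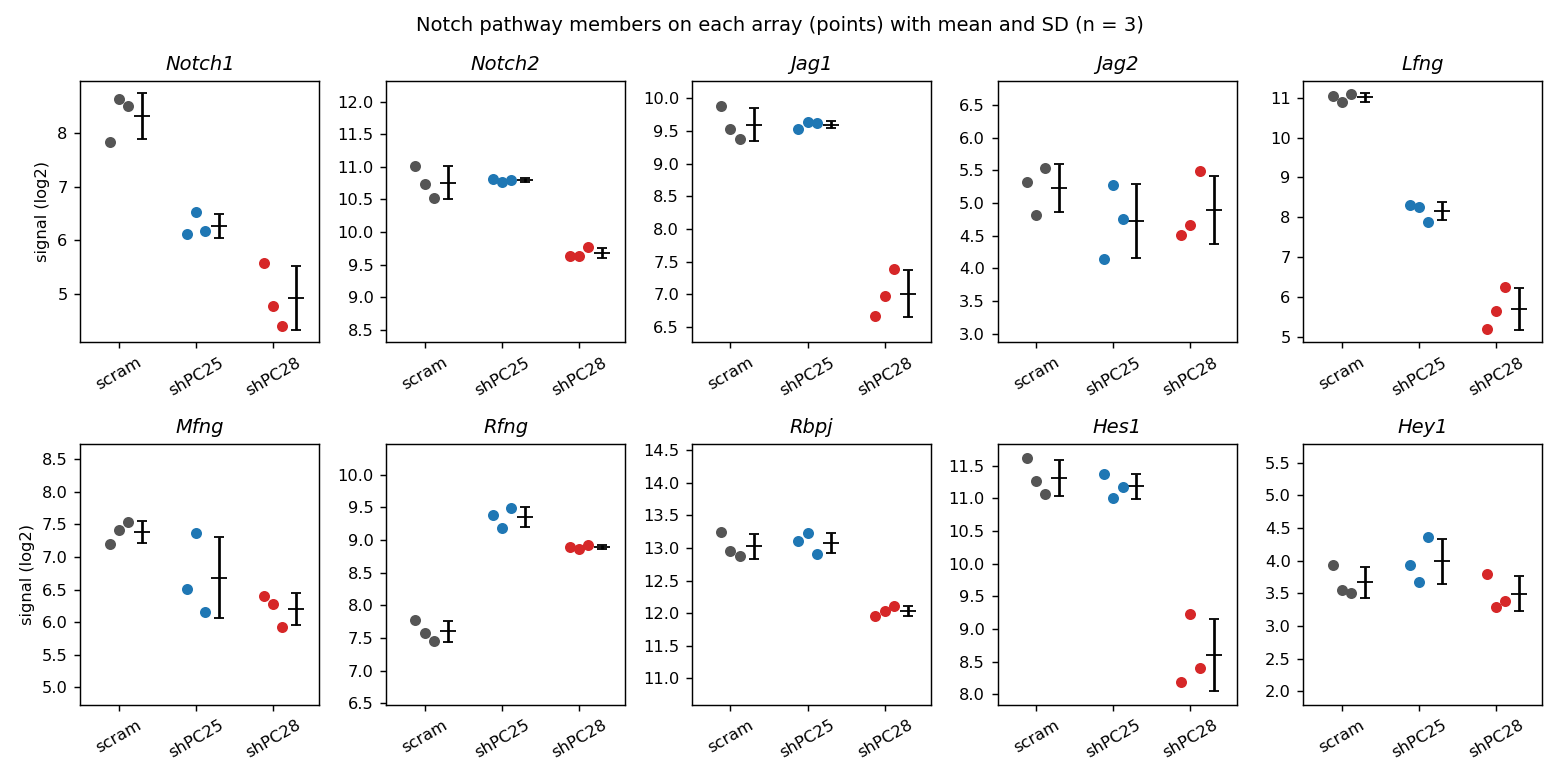
Log2 signal of the 10 Notch pathway members on each of the 9 arrays, by hairpin group (horizontal axis), with the mean and SD of 3 arrays beside the points. Each panel has its own vertical axis, and Lfng, Notch1 and Rfng are the panels where both hairpin groups lie clear of scram, Rfng above it.

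Of the receptors, Notch1 fell with both hairpins and Notch2 with shPC28. Notch1, the receptor known for activating mutations in T-cell leukaemia, read 7.84, 8.63 and 8.51 on the scram arrays. It read 6.12, 6.53 and 6.18 with shPC25. It read 5.58, 4.78 and 4.41 with shPC28. The 3 groups did not overlap, and every shPC28 array was lower than every shPC25 array. Against scram Notch1 fell by 2.05 with shPC25 (SE 0.31, 4.14-fold, adjusted p = 0.00217) and by 3.40 with shPC28 (SE 0.31, 10.6-fold, adjusted p = 2.72e-05). It ranked 81st from the lowest of the 22206 changes with shPC25 and 91st with shPC28.

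Notch2, the second receptor of the set, read 11.02, 10.73 and 10.52 in scram and 10.82, 10.76 and 10.80 with shPC25. The shPC25 arrays lay within the scram range, with a difference of 0.04 and a 95% interval of -0.26 to 0.33 (adjusted p = 0.88). With shPC28 Notch2 read 9.64, 9.64 and 9.77, below all other arrays, and fell by 1.07 against scram (SE 0.13, 2.10-fold, adjusted p = 0.000148). The pattern of Notch2 over the groups, level with shPC25 and lower with shPC28, was also that of Jag1, Rbpj and Hes1.

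Of the Jagged ligands, Jag1 fell with shPC28 and Jag2 passed no test. Jag1 read 9.88, 9.53 and 9.38 in scram and 9.53, 9.63 and 9.62 with shPC25, so the shPC25 arrays again lay within the scram range. The difference was -0.0033 with a 95% interval of -0.43 to 0.43 (adjusted p = 0.993). With shPC28 Jag1 read 6.67, 6.97 and 7.38, below all other arrays, and fell by 2.59 (SE 0.19, 6.02-fold, adjusted p = 8e-06). Jag2 lay near the median of all probe sets and its replicates spread widely, at 5.32, 4.82 and 5.54 in scram, 4.14, 5.28 and 4.75 with shPC25, and 4.51, 4.67 and 5.49 with shPC28. All 3 groups overlapped, the differences from scram were -0.50 (95% interval -1.28 to 0.27, adjusted p = 0.357) and -0.34 (95% interval -1.11 to 0.44, adjusted p = 0.47), and these intervals include a change of 1 downwards.

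The 3 Fringe genes, whose products carry out the same sugar transfer on Notch, did not move together. Lfng, on which the set was selected, read 11.05, 10.88 and 11.09 in scram. It read 8.32, 8.25 and 7.89 with shPC25. It read 5.19, 5.66 and 6.26 with shPC28. The groups lay in 3 separate bands. Lfng was 2.85 lower with shPC25 (7.23-fold) and 5.30 lower with shPC28 (39.5-fold), the 11th and the 3rd lowest of 22206 changes. Between the hairpins it was 2.45 lower with shPC28 (5.46-fold).

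Rfng, the gene of radical fringe, rose with both hairpins. It read 7.78, 7.57 and 7.46 in scram. It read 9.39, 9.19 and 9.49 with shPC25. It read 8.89, 8.86 and 8.92 with shPC28. Every hairpin array was more than 1 log2 unit above every scram array. Rfng rose by 1.75 with shPC25 (SE 0.12, 3.37-fold, adjusted p = 8.05e-05), the 14th highest of 22206 changes, and by 1.29 with shPC28 (SE 0.12, 2.44-fold, adjusted p = 2.85e-05), the 388th highest.

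Mfng, the gene of manic fringe, read 7.20, 7.41 and 7.53 in scram and 6.40, 6.28 and 5.92 with shPC28, with no overlap. It fell by 1.18 with shPC28 (SE 0.28, 2.27-fold, adjusted p = 0.00807), a call that was lost after quantile normalization, where the change was -0.62 (adjusted p = 0.108). With shPC25 it read 6.51, 7.37 and 6.16, and the second array lay inside the scram range. The change of -0.70 did not pass the test (95% interval -1.33 to -0.07, adjusted p = 0.118), and without shPC25 replicate 2 it was -1.05 (adjusted p = 0.00988). Among the Fringe genes, Rfng was the one with higher signal in both hairpin groups.

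Rbpj, the DNA-binding partner of the Notch intracellular domain, fell with shPC28. It read 13.24, 12.95 and 12.88 in scram and 13.10, 13.22 and 12.91 with shPC25, a difference of 0.05 (95% interval -0.24 to 0.34, adjusted p = 0.819). With shPC28 it read 11.95, 12.04 and 12.11, below all other arrays, and fell by 0.99 (SE 0.13, 1.99-fold, adjusted p = 0.000226).

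Hes1, a repressor that is among the most direct Notch target genes, fell with shPC28. It read 11.62, 11.26 and 11.07 in scram. It read 11.38, 11.00 and 11.18 with shPC25, overlapping scram. It read 8.19, 9.23 and 8.40 with shPC28, with every array more than 1.5 log2 units below the other groups. The change with shPC28 was -2.71 (SE 0.26, 6.54-fold, adjusted p = 4.09e-05), and with shPC25 it was -0.13 (95% interval -0.73 to 0.47, adjusted p = 0.782). Hey1, the other target, had a low signal, at 3.94, 3.55 and 3.51 in scram, 3.93, 3.68 and 4.36 with shPC25, and 3.80, 3.29 and 3.39 with shPC28. Its groups overlapped and its differences from scram, 0.32 with shPC25 (adjusted p = 0.33) and -0.17 with shPC28 (adjusted p = 0.544), did not pass. Its 95% intervals were -0.15 to 0.80 and -0.65 to 0.30.

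**Figure D2:**
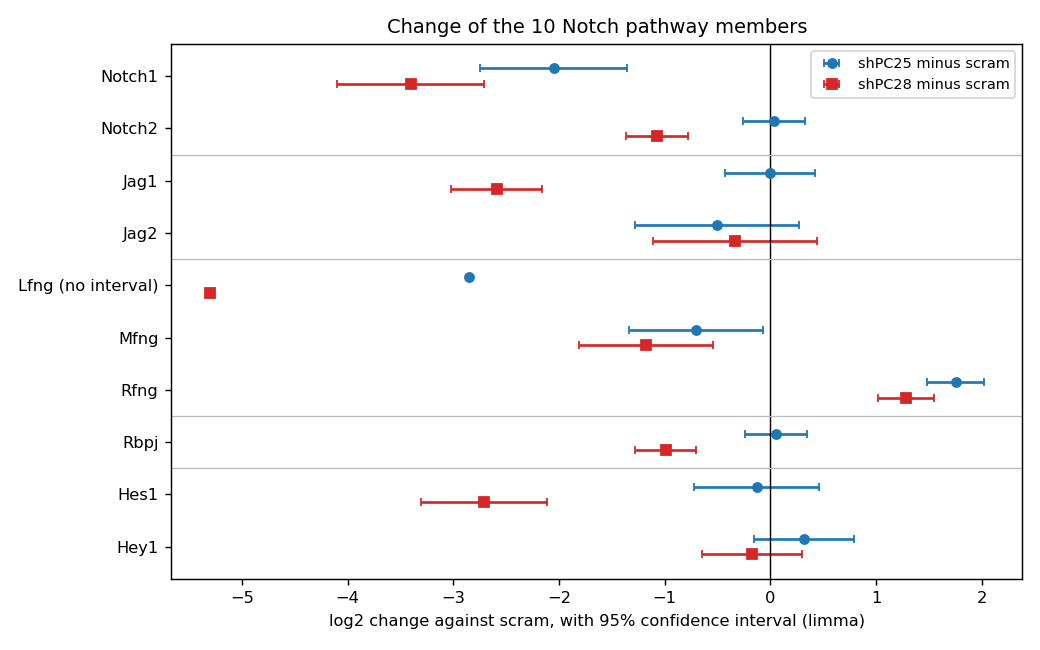
Log2 change of each member against scram (horizontal axis) with shPC25 (circles) and shPC28 (squares), with 95% confidence intervals from limma except for Lfng, grouped as receptors, ligands, Fringe, Rbpj and targets. Rfng is the member right of 0 with both hairpins, and Notch2, Jag1, Rbpj and Hes1 straddle 0 with shPC25 while lying at -0.99 to -2.71 with shPC28.

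The hairpins were also compared with each other. Pcx was higher with shPC28 than with shPC25, and its part in the differences below was not tested. Of the 9 members other than Lfng, 6 were lower with shPC28 at an adjusted p under 0.05 and 0 were higher. Of all probe sets, 14.5% were lower and 11.8% higher by the same rule. The arrays of the 2 hairpins did not overlap for 6 of the 9 (39.5% of all probe sets), and their median difference was -1.04 beside 0.04 over all probe sets. Jag1 had a difference of -2.59 (SE 0.19, adjusted p = 3.62e-05), the 35th lowest of 22206. Hes1 had one of -2.58 (SE 0.26, adjusted p = 0.000167), the 37th lowest. The receptors followed, with -1.35 for Notch1 (SE 0.31, adjusted p = 0.0109) and -1.11 for Notch2 (SE 0.13, adjusted p = 0.000329), and Rbpj had -1.04 (SE 0.13, adjusted p = 0.000431).

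Rfng, which was above scram in both groups, was lower with shPC28 than with shPC25 by 0.47 (SE 0.12, adjusted p = 0.0176). This call was lost after quantile normalization (difference -0.18, adjusted p = 0.309) and without shPC25 replicate 1 (-0.45, adjusted p = 0.0554) or replicate 3 (-0.40, adjusted p = 0.0654). For Mfng the difference between the hairpins was -0.48 (95% interval -1.11 to 0.15, adjusted p = 0.252), for Jag2 0.17 (95% interval -0.61 to 0.94, adjusted p = 0.769) and for Hey1 -0.50 (95% interval -0.97 to -0.02, adjusted p = 0.118). These 3 did not pass, and their intervals reach from -1.11 to 0.94.

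A further 68 genes that act in the pathway were listed by role, and 63 of them had a probe set. With shPC28, 31 were lower and 10 higher (20.5% and 21.2% of all probe sets), and with shPC25 18 were lower and 9 higher (11.3% and 9.19% of all probe sets). Their median change was -0.30 with shPC28 and -0.19 with shPC25, beside 0.10 and 0.04 over all probe sets. The split moved with the scaling of the arrays and, with shPC25, with single arrays, since 5 genes were higher without scram replicate 2 or without shPC25 replicate 2, as with the replicate number as a block. After quantile normalization it was 28 lower and 15 higher with shPC28, and with arrays centred on their medians it was 14 lower and 11 higher with shPC25, while centring on 1091 olfactory receptor probe sets gave 23 lower and 6 higher with shPC25. Between the hairpins, 23 were lower and 7 higher with shPC28 (14.5% and 11.8% of all probe sets), beside 22 lower and 12 higher after quantile normalization and 29 lower and 4 higher with olfactory centring. Where a gene outside the rule for named genes is mentioned below to fill a count (Notch3, Pofut1, Gxylt2, Ncstn, Aph1a, Snw1, Kat2b, Maml1, Spen, Mib2, Numbl, Itch, Nedd4), it was chosen after its values were seen.

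Of the 2 other receptors, Notch4 had a level under 3.01, the 25th percentile of all probe sets, in most arrays, and fell by 0.66 with shPC28 (adjusted p = 0.00903). Notch3 was also dim, and did not pass with either hairpin. Of 5 further ligand genes, Dll1 fell with both hairpins and Dll4 with shPC28. Dll1, which activates Notch from the neighbouring cell, read 7.98, 7.40 and 7.78 in scram, 6.30, 6.87 and 6.29 with shPC25, and 3.97, 4.61 and 3.82 with shPC28. Its 3 groups did not overlap, and it fell by 1.23 with shPC25 (adjusted p = 0.00892) and fell by 3.59 with shPC28 (adjusted p = 6.16e-06). The mean of Dll1 with shPC28, 4.13, lay under the median of all probe set means. Dll4, a ligand best known from blood vessels, fell by 1.69 with shPC28 (adjusted p = 0.00107), from a scram mean of 5.27 to 3.58, also under that median. Its change of -0.91 with shPC25 lay at the edge of the threshold (adjusted p = 0.0505) and passed in 8 of 17 alternatives.

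The enzymes that build sugars on Notch other than Fringe include Poglut1, which adds O-glucose, Gxylt1 and Xxylt1, which extend it with xylose, and Eogt, which adds N-acetylglucosamine directly. With shPC25 3 of 6 were lower (11.3% of all probe sets), namely Gxylt1, Xxylt1 and Eogt. With shPC28 Poglut1 and Pofut1 were lower as well (20.5% of all probe sets), Pofut1 being the enzyme that makes the O-fucose on which Fringe acts. Xxylt1 read 9.35, 9.16 and 9.10 in scram, 7.89, 8.16 and 8.17 with shPC25, and 6.30, 5.83 and 5.73 with shPC28. It fell in separate steps, by 1.13 (adjusted p = 0.00179) and 3.25 (adjusted p = 1.25e-06). Gxylt1 fell by 0.96 (adjusted p = 0.000946) and 1.30 (adjusted p = 3.11e-05), and Eogt by 0.61 (adjusted p = 0.00455) and 1.11 (adjusted p = 3.67e-05). Poglut1 fell by 1.05 with shPC28 (adjusted p = 1.9e-05), and its change of -0.27 with shPC25 did not pass (adjusted p = 0.0629) except in 5 of 18 alternatives. None of the 6 was higher with shPC25 (9.19% of all probe sets) or shPC28 (21.2% of all probe sets), and the sixth, Gxylt2, did not pass.

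Among the 9 proteases and gamma-secretase subunits, 2 were lower and 2 higher with shPC25 (11.3% and 9.19% of all probe sets). With shPC28 3 were lower and 3 higher (20.5% and 21.2% of all probe sets). Adam10 and Adam17, the genes of ADAM proteases that can cut Notch receptors, and Furin, which cuts the receptor during its passage to the surface, were lower with shPC28. Adam10 read 13.34, 13.51 and 13.48 in scram, 12.66, 12.56 and 12.59 with shPC25, and 11.28, 11.37 and 11.47 with shPC28, with narrow groups that did not overlap. It fell by 0.84 (adjusted p = 6e-04) and 2.07 (adjusted p = 9.07e-07), and Adam17 fell by 0.71 (adjusted p = 0.00381) and 1.94 (adjusted p = 3.08e-06). Furin fell by 1.55 with shPC28 (adjusted p = 6.86e-05), and with shPC25 its change was -0.43 (adjusted p = 0.104). Psenen, a gamma-secretase subunit, rose from 14.33, 14.24 and 14.30 in scram to 14.90, 14.91 and 14.92 with shPC25 and 15.39, 15.46 and 15.42 with shPC28. The changes were 0.62 (adjusted p = 0.00119) and 1.13 (adjusted p = 7.49e-06). The subunit genes Aph1a with both hairpins and Ncstn with shPC28 were the other ones that rose.

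In the nuclear complex, the Mastermind-like coactivators and the acetyltransferases p300 and CBP, the latter encoded by Ep300 and Crebbp, were lower with shPC28. Maml2 read 8.79, 8.85 and 8.65 in scram, 8.18, 7.93 and 8.27 with shPC25, and 5.74, 5.39 and 4.98 with shPC28. It fell by 3.39 with shPC28 (adjusted p = 1.72e-06). Its smaller fall of 0.64 with shPC25 passed narrowly (adjusted p = 0.0406) and was lost in 10 alternatives, among them quantile normalization (adjusted p = 0.179) and leaving out any 1 scram or shPC25 array or shPC28 replicate 2 (adjusted p = 0.0554 to 0.127). Maml3 fell by 2.34 (adjusted p = 2.82e-05), Ep300 by 2.33 (adjusted p = 2.32e-05) and Crebbp by 1.88 (adjusted p = 2.51e-06) with shPC28. With shPC25 Crebbp fell by 0.67 (adjusted p = 0.00355), while the changes of Maml3, -0.56 (adjusted p = 0.102), and Ep300, -0.57 (adjusted p = 0.0845), did not pass, except in 1 and 4 of 18 alternatives. Maml1 was lower with shPC28 and the acetyltransferase gene Kat2b with both hairpins, and Snw1, a coactivator that also belongs to the spliceosome, was the gene of this group that was higher with both.

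The 9 corepressor genes had 6 lower and 1 higher with shPC28 (20.5% and 21.2% of all probe sets). With shPC25 they had 2 lower and 1 higher (11.3% and 9.19% of all probe sets). Tle4, a Groucho-type corepressor that Hes proteins recruit, read 10.33, 10.08 and 10.22 in scram, 8.95, 9.34 and 9.19 with shPC25, and 7.77, 8.39 and 8.11 with shPC28. Its groups did not overlap, and it fell by 1.05 (adjusted p = 0.00318) and 2.12 (adjusted p = 1.36e-05). Tle3, of the same family, and the histone deacetylase gene Hdac2 fell with shPC28 by 0.73 each (adjusted p = 0.000177 and 0.00164), and with shPC25 their changes of -0.29 (adjusted p = 0.0528) and -0.37 (adjusted p = 0.0786) did not pass, except in 6 and 4 of 18 alternatives. Cir1, a corepressor that binds RBPJ, rose by 1.19 with shPC28 (adjusted p = 0.000828) and by 0.71 with shPC25 (adjusted p = 0.0286). The shPC25 call of Cir1 was lost with the replicate number as a block and without scram replicate 1 or 2 or shPC25 replicate 1 or 2 (adjusted p = 0.0542 to 0.0939). The other gene lower with shPC25 was Spen, which encodes an RBPJ-binding corepressor.

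Of the 15 genes for endocytosis and turnover, 5 were lower and 4 higher with shPC28 (20.5% and 21.2% of all probe sets). With shPC25 5 were lower and 3 higher (11.3% and 9.19% of all probe sets). Mib1, a ubiquitin ligase that ligands need in the sending cell, fell by 0.83 with shPC25 (adjusted p = 0.00453) and by 2.10 with shPC28 (adjusted p = 5.82e-06). Fbxw7, whose product marks the Notch intracellular domain for destruction, read 9.36, 9.15 and 9.05 in scram, 7.78, 7.75 and 7.97 with shPC25, and 5.89, 6.85 and 5.55 with shPC28. It fell by 1.35 (adjusted p = 0.0105) and fell by 3.09 (adjusted p = 2.96e-05). Numb, an inhibitor of Notch signalling, fell by 0.45 (adjusted p = 0.00748) and 0.85 (adjusted p = 6.18e-05). Both positive and negative regulators of the pathway were thus among the genes that fell. Dtx3, a Deltex-family ubiquitin ligase, rose by 0.82 (adjusted p = 0.00107) and 1.44 (adjusted p = 8.62e-06). Mib2, the relative of Mib1, and Numbl, the relative of Numb, were higher with both hairpins and Itch with shPC28, whereas Nedd4 was lower with shPC25.

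The 9 further target genes showed no common direction. With shPC28 1 was higher and 3 were lower (21.2% and 20.5% of all probe sets). With shPC25 2 were higher and 2 lower (9.19% and 11.3% of all probe sets). Hes7, a repressor of the segmentation clock in the embryo, was higher with both hairpins. It read 6.30, 6.52 and 6.90 in scram, 7.99, 7.86 and 7.81 with shPC25, and 8.52, 8.35 and 7.63 with shPC28. All hairpin arrays lay above all scram arrays, and Hes7 rose by 1.31 (adjusted p = 0.005) and 1.59 (adjusted p = 0.000515). Id1, an inhibitor of helix-loop-helix factors, read 16.28, 16.20 and 16.23 in scram, 15.35, 15.07 and 15.20 with shPC25, and 14.19, 14.06 and 14.07 with shPC28. It fell in even steps, by 1.03 (adjusted p = 0.000301) and 2.13 (adjusted p = 9.77e-07).

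Bcl2, an inhibitor of apoptosis, fell by 1.51 with shPC28 (adjusted p = 2.9e-05). Its fall of 0.46 with shPC25 passed narrowly (adjusted p = 0.045) and was lost in 9 alternatives, among them leaving out scram replicate 1 or 2, shPC25 replicate 1, 2 or 3, or shPC28 replicate 2 (adjusted p = 0.0601 to 0.137). Myc, a growth-promoting transcription factor, was the one of the 27 named genes with opposite calls. It read 16.79, 16.58 and 16.60 in scram, 16.99, 17.08 and 16.93 with shPC25, and 16.12, 16.26 and 16.18 with shPC28. Its 3 groups did not overlap. Myc fell by 0.47 with shPC28 (adjusted p = 0.00427) and rose by 0.34 with shPC25 (adjusted p = 0.0394), and that rise was lost in 10 alternatives, among them quantile normalization (adjusted p = 0.102) and leaving out scram replicate 2 or 3, shPC25 replicate 1, 2 or 3, or shPC28 replicate 3 (adjusted p = 0.0539 to 0.126). The difference between the hairpins was 0.81, lower with shPC28 (adjusted p = 0.000418).

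**Figure D3:**
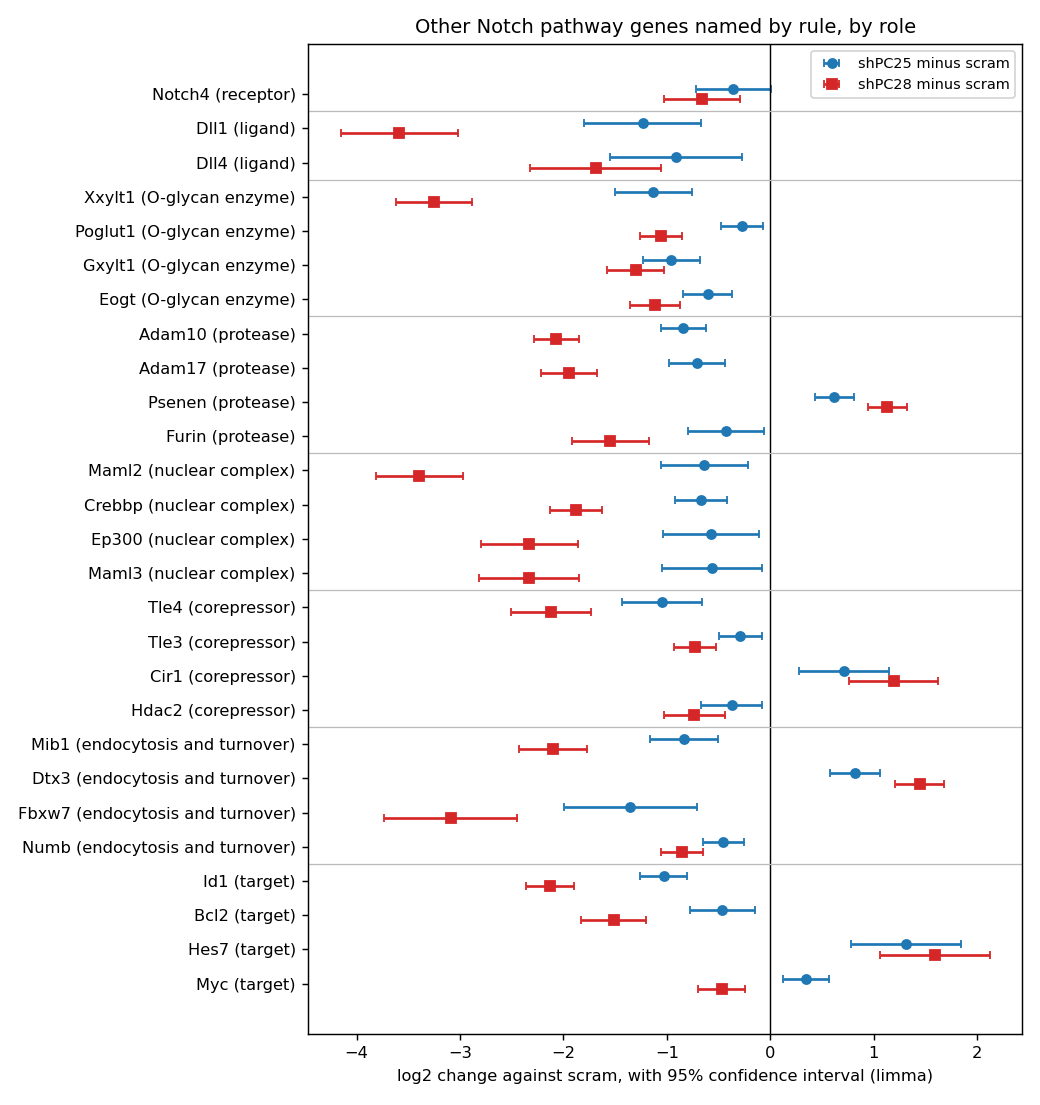
Log2 change against scram (horizontal axis) of the 27 other Notch pathway genes taken by the rule for named genes, by role, with shPC25 (circles) and shPC28 (squares) and 95% confidence intervals from limma. Psenen, Cir1, Dtx3 and Hes7 lie right of 0 with both hairpins, and Dll1, Xxylt1, Maml2 and Fbxw7 lie at or below -3.09 with shPC28.

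Genes with profiles most like those of Lfng, Notch1 and Hes1 were found by the root mean square difference over the 9 arrays after subtracting each gene's scram mean, among 10038 candidate probe sets. This is a description over arrays that share their groups. For Lfng the nearest were Klf2, a zinc finger transcription factor (0.399), Tmem229b (0.401), Eif2ak2, a kinase activated by double-stranded RNA (0.519), Tlnrd1 (0.523) and Efnb1, the ligand ephrin-B1 (0.528), in log2 units. Klf2 averaged 11.28 in scram, 8.02 with shPC25 and 6.05 with shPC28, and Efnb1 averaged 9.48, 7.06 and 4.61. The choice fixes that these profiles resemble that of Lfng, and the 5 had mean differences from scram of -2.41 to -3.26 with shPC25 and -4.63 to -5.43 with shPC28.

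For Notch1 the nearest were Gjc1, a gap junction protein (0.262), Tmem154 (0.294), Zfp764 (0.303), Gimap6 (0.310) and Tnf, the cytokine tumour necrosis factor (0.322). Tnf averaged 7.74 in scram, 5.54 with shPC25 and 4.26 with shPC28. For Hes1 they were Sh2b1 (0.280), Crim1 (0.284), Gcnt2, a glycosyltransferase (0.292), Mospd1 (0.301) and Antxr2 (0.303). Gcnt2 averaged 13.10 in scram, 12.83 with shPC25 and 10.07 with shPC28, close to scram with the first hairpin and low with the second. No pathway gene was among these 15.

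**Figure D4:**
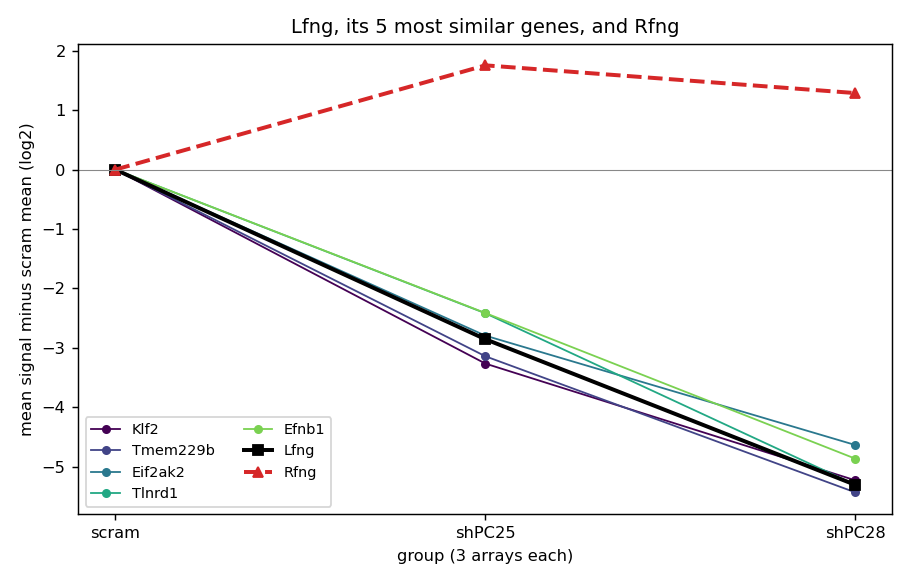
Mean log2 signal minus the scram mean (vertical axis) in each group of 3 arrays (horizontal axis) for Lfng (thick black line), the 5 genes with the smallest root mean square difference from it (thin lines) and Rfng (dashed red line). The thin lines descend with Lfng to between -4.63 and -5.43 with shPC28, while Rfng stands at 1.75 and 1.29.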

How the data were processed

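RNA of E0771 cells was labelled with biotin and hybridised to Clariom S arrays, and the authors processed the arrays in the Transcriptome Analysis Console. The deposited table holds 1 value per probe set and array, taken as log2 signal normalized by the authors. How the values were normalized, the base of the logarithm and the build of the genome are not stated in the sources used, and base 2 was taken from the range of the values, 1.51 to 18.64. Gene symbols came from the platform annotation, which gave 1 symbol to 19572 of 22206 probe sets and none to 2634. Levels of different probe sets were not tested against each other. They were placed against the median or the 25th percentile of all probe set means, and marker levels were summed per cell type. The number of arrays limits the precision, with a standard error of 0.16 for the change of the median probe set.

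Group means were fitted jointly over the 9 arrays in limma 3.58.1 (lmFit, eBayes; R 4.3.3), with Benjamini-Hochberg adjustment over all 22206 probe sets, two-sided. As in the study, the threshold was an adjusted p under 0.05. No probe set was removed. The fit was tested on simulated data. The alternatives were quantile normalization, centring on array medians or on olfactory receptor probe sets, removal of the lowest 25% or 50% of probe sets, other variance models, array weights, the replicate number as a block, fits of the compared groups alone and leaving out each array.

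All members were named. Of the other pathway genes, up to 4 per role were named, those with the smallest p against scram among genes that passed the test and whose arrays did not overlap, and the 5 genes most like each of Lfng, Notch1 and Hes1. The members, the gene lists and the naming rule were chosen with earlier results of these data known. Some listed genes and markers are not reported here. Promoters came from the RefSeq table of GRCm38.p6, and each motif was searched on both strands.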

Additional observations from a re-analysis of the deposited data

Results flagged for a closer look

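The changes against scram differed between the hairpins for 6 of 9 members tested and for 21 of 27 other named genes, by the direct limma comparison of shPC28 with shPC25 at an adjusted p under 0.05, where 14.5% of all probe sets were lower with shPC28 and 11.8% higher. The 27 were named for their small p and separate arrays against scram, so that count is a description. Lfng was not tested. The differences below are shPC28 minus shPC25 on the log2 scale.

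Among the members they were -2.59 for Jag1, -2.58 for Hes1, -1.35 for Notch1, -1.11 for Notch2, -1.04 for Rbpj and -0.47 for Rfng. In 5 of these 6 genes shPC28 was the lowest of the 3 groups, and in Rfng it lay between scram and shPC25.

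Among the other genes, the ligand gene Dll1 differed by -2.35. The O-glycan enzyme genes Xxylt1, Poglut1 and Eogt differed by -2.12, -0.78 and -0.51. The protease genes Adam10, Adam17 and Furin differed by -1.23, -1.23 and -1.12, and the gamma-secretase gene Psenen by 0.51. In the nuclear complex Maml2, Maml3, Ep300 and Crebbp differed by -2.76, -1.78, -1.76 and -1.21. The corepressor genes Tle4 and Tle3 differed by -1.07 and -0.44. Among the genes for endocytosis and turnover, Fbxw7, Mib1 and Numb differed by -1.74, -1.27 and -0.40, and Dtx3 by 0.62. The target genes Id1, Bcl2 and Myc differed by -1.10, -1.05 and -0.81.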

How the results depend on the processing

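All 108 alternative counts of called members (Lfng counted) and other pathway genes lay within 1.5 times the main ones. Of 480 alternative values for the 9 members tested, 462 kept their direction and their side of the threshold, 4 lost a call and 1 gained one, in Mfng and Rfng as given above. In 13 the sign turned, in each case for a change that had not passed, and the cause was not tested. With shPC25 against scram, Jag1 moved from -0.0033 to 0.016 with array weights, 0.095 with median centring and 0.13 with quantile normalization, and lay at -0.11 to 0.14 when 1 array was left out. Centring on olfactory receptor probe sets gave -0.037 for Notch2, -0.020 for Rbpj and -0.040 for Mospd1, a gene with a profile like that of Hes1. Leaving out 1 array gave ranges of -0.082 to 0.17 for Notch2, -0.018 to 0.16 for Rbpj, -0.25 to 0.022 for Hes1 and -0.10 to 0.14 for Mospd1, and -0.13 to 0.45 for Jag2 between the hairpins. Olfactory centring shifted the median of all probe sets with shPC28 from 0.10 to -0.10, and median centring shifted it to 0.20.

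The replicate numbers were not used to pair the samples. Deviations of same-numbered arrays correlated at -0.139 to -0.184, so arrays with the same number were not more alike. Deviations add up to 0 within a group, so differently numbered arrays of 2 groups deviated alike on average. The main fit does not model this. Whether arrays of different groups shared a batch in another way was not tested. With the replicate block, 2 of the 9 members tested were called with shPC25, 7 with shPC28 and 6 between the hairpins, the same numbers as without it, while the share called of all probe sets went from 20.4% to 13.8%, from 41.7% to 36.4% and from 26.2% to 20.5%, and the other pathway genes called were 19, 40 and 27, beside 27, 41 and 30. Jag2 and Hey1 dropped out under the stricter filter on dim probe sets, so 7 of the 9 members were tested there. With standard errors of 0.34 for Jag2 and 0.21 for Hey1 against scram, a small change would not be detected.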
